A study of Homo sapiens with 6 samples.

Results

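Metallothioneins were followed here in PLC/PRF/5 cells, an established human liver cancer line, with and without knockdown of MTR4, the RNA helicase that feeds transcripts to the nuclear exosome. The members are the 8 listed metallothionein genes of chromosome 16 (MT1A, MT1E, MT1F, MT1G, MT1H, MT1M, MT1X and MT2A) and their regulator MTF1, taken by symbol from the Ensembl gene identifiers in the count files. They make up 9 of the 60675 genes counted. The RNA-seq data comprised 3 libraries labelled control and 3 labelled MTR4 KD, all from cells grown in DMEM with fetal bovine serum, with no metal or hormone treatment in the labels. The study describes the expression analysis as one of iMTR4 cells, which carry an inducible MTR4 shRNA, before and after doxycycline (Doxy). The labels do not say how the control libraries were treated, and no Doxy-treated library with the scramble shRNA was analysed here. Under the study's description, effects of Doxy and of MTR4 loss cannot be told apart in these libraries. For the glycolytic genes it measured, the paper reports no effect of Doxy in cells with the scramble shRNA. The labels do not say that the replicates came from separate cultures, and p-values then measure only the spread between these libraries, which may be technical.

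Metallothioneins are small cytoplasmic proteins in which cysteines bind zinc, copper and cadmium. Their genes are known as among the most inducible in liver cells: zinc released in the cell binds MTF1, a zinc finger transcription factor, which then binds metal response elements in the metallothionein promoters and in that of the zinc exporter SLC30A1. Glucocorticoids and inflammatory cytokines also raise them in hepatocytes, and they are often low in liver cancer.

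The coding sequences show how alike the members are, which bears on how reads could be told apart. Printed here from the GENCODE transcripts, 5′ to 3′, are MT2A, the most abundant member, MT1M, the most divergent from it, MT1E, whose group sums of reads lay apart, and MT1X, the member with the fewest unique stretches. The group sums of MT1G also lay apart, in the other direction, but its coding sequence has another length and is not printed. Capitals mark the bases that differ from MT2A.

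MT2A: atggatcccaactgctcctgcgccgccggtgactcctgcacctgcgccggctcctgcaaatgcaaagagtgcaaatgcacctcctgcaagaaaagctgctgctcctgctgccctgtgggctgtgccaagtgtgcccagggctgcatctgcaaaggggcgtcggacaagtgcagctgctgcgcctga

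MT1M: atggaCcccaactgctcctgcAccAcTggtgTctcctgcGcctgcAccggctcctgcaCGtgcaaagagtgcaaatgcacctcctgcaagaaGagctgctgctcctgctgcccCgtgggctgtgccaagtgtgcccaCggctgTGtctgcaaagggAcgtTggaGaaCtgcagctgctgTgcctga

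MT1E: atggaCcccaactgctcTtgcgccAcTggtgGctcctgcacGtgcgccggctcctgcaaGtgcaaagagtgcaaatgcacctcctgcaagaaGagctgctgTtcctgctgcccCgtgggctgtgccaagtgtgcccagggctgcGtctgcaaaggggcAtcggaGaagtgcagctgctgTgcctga

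MT1X: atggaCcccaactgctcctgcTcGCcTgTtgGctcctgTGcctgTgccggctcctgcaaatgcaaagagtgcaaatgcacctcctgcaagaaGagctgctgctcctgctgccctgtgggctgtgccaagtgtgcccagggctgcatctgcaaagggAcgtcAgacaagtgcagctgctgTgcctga

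Each coding sequence has 186 bases, apart from that of MT1G with 189. Every metallothionein has 20 cysteine codons (TGC or TGT), which is 32.8% of the codons (32.3% in MT1G), against 21 and 2.79% in MTF1 with its 2262 coding bases. The differences from MT2A number 14 in MT1E and MT1X and 19 in MT1M. Over the 28 pairs of metallothionein genes, identity of the coding bases ran from 88.7% (MT1F and MT1X) to 94.6% (MT1A and MT1E), with a median of 91.9%. Whole transcripts are less alike. All windows of 75 bases from the MT2A, MT1A, MT1F and MT1M transcripts were found in no other gene, whereas 63.9% of the MT1X windows were, and 93.3% of its windows of 150 bases. In the GENCODE annotation used here, MT1X also shares 321 exon bases (18.59%) with another gene on the same strand, and the other members share none. Whether the annotation used for counting the reads holds the same overlap was not checked. Reads that align to more than 1 place or overlap 2 genes were left out of the counts, so MT1X may be undercounted more than the others. The read length was not given in the sources used here.

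**Figure D1:**
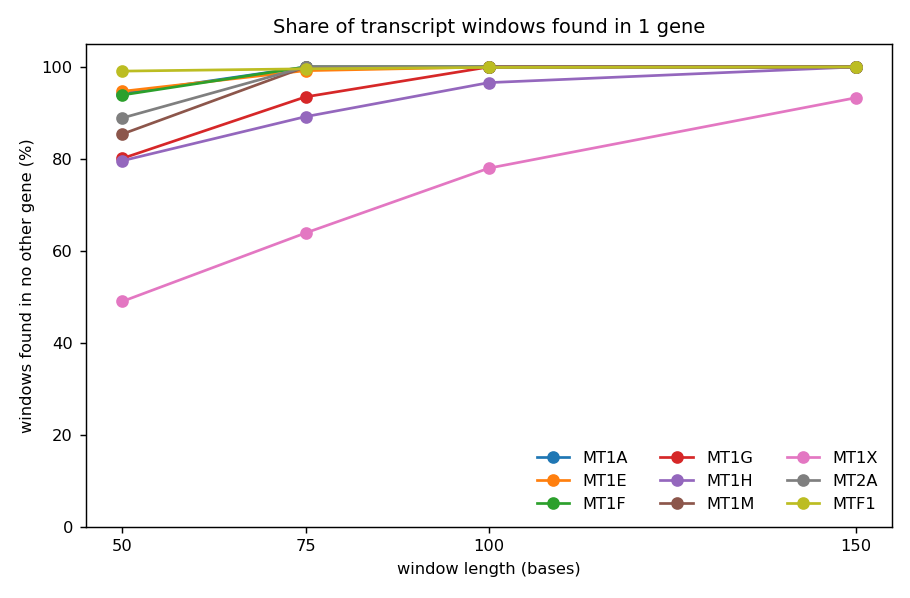
Share of windows along each member's transcript (y axis, percent) whose sequence was found in no other annotated gene, for windows of 50, 75, 100 and 150 bases (x axis), 1 line per member. At 50 bases the share is 88.9% for MT2A and 49% for MT1X, the lowest line throughout.

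The promoters of 4 members were held in the RefSeq table used (build GRCh38.p14), and the 250 bases before each start are printed below because metal response elements lie there. Capitals mark the element cores, searched as TGCACNC and TGCGCNC on both strands. The forms differ at 1 letter, so that no place can match both on 1 strand.

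MT2A (chr16:56608334-56608583, plus strand): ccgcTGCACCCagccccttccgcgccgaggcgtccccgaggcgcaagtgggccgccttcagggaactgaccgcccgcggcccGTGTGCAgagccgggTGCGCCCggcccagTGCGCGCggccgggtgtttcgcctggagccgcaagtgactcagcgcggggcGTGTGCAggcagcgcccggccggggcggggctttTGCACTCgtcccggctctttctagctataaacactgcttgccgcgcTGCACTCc

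MT1H (chr16:56669564-56669813, plus strand): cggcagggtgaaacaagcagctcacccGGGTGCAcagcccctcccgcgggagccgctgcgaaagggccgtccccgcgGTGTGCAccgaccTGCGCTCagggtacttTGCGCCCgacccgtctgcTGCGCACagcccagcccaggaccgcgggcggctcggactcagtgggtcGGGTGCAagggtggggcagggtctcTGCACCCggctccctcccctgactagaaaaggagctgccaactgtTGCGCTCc

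MT1X (chr16:56682220-56682469, plus strand): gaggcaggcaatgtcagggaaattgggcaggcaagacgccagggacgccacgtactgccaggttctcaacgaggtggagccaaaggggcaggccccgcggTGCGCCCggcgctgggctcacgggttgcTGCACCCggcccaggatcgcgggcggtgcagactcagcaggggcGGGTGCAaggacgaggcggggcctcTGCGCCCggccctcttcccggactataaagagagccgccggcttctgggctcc

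MTF1 (chr1:37859593-37859842, minus strand): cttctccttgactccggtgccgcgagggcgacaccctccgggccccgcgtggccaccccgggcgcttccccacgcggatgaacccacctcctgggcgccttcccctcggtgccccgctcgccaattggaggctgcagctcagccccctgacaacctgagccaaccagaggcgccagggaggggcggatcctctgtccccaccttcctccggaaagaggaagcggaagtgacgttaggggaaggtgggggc

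MT2A had 7 cores and MT1H had 8, counts reached by 0.0313% and 0.0171% of the 35116 promoters in the table. MT1X had 4 (reached by 0.37%). At least 1 core was found in 24.8% of promoters. None was found upstream of MTF1, which says only that these letters are not in this window. The promoters of MT1A, MT1E, MT1F, MT1G and MT1M were not held in the table.

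The targeted gene was lower in every knockdown library. MTR4 (MTREX) had 72.2, 87.4 and 74.4 CPM (reads relative to the library size, with TMM normalization) in control 1 to 3 and 44.6, 48.8 and 44.1 CPM in MTR4 KD 1 to 3. Its log2 fold change was -0.82 ± 0.0542 (SE; adjusted p = 3.62e-07). Between 60686786 and 72708682 reads were counted on genes per library. The libraries fell into classes by the share of entries whose alignment was not unique: 34.7% to 37.5% in control 1, control 3 and MTR4 KD 3 (more non-unique reads), and 14.8% to 18.2% in control 2, MTR4 KD 1 and MTR4 KD 2 (fewer non-unique reads). Within a group, the chi-square of gene counts per degree of freedom was 4.83 and 8.17 for libraries of 1 class and 83.6 to 93.9 across classes, so no libraries agreed within sampling noise. The comparison therefore held this library class as a term in edgeR's quasi-likelihood test, and a gene was called at an adjusted p under 0.05. It called 20.2% of the 18075 tested genes, 9.43% higher and 10.8% lower in MTR4 KD (1705 and 1944 genes; scaled by ACTB, 5414 and 778). With condition as the only term, 3.60% were called, and class itself called 31.5%. A difference of the change between classes was called for 0.974% (176 genes, against 2013 at an unadjusted p under 0.05). The 12 hepatocyte and hepatoma markers were all present, at 17900 to 20200 CPM summed per library, and 4 of them rose: ALB (log2 fold change 0.26), APOA1 (0.54), APOH (0.49) and TTR (0.90), all called with condition only as well. The 9 markers of other cell types summed to 6.91 to 8.34 CPM in control and 3.64 to 8.60 CPM in MTR4 KD, none at 0 throughout, and 1 of the 2 tested (COL3A1) was lower (log2 fold change -0.82, adjusted p = 0.0398; 0.205 with condition only, and 0.673 without control 2, where the log2 fold change was -0.26). Some of these markers lay in few libraries: KRT5 had 92 of its 101 reads in control 1 and PTPRC 109 of 161 in control 3. CD3E had 31 and 25 of 57 in control 3 and MTR4 KD 3. Whether other cells were present was not tested, nor was their part in the values below.

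The 7 MT1 genes were close to silent in these cells, and MT2A was expressed at a moderate level. Only 959 of the 384090305 reads counted over the 6 libraries fell on the 8 metallothionein genes, or 2.50 CPM, and MT2A took 835 of them (87.1%). The other 7 genes shared 124 reads. MT2A and MTF1 passed the filter on low counts and were tested, 7 members did not, and neither of the tested members was called, against 20.2% of all tested genes.

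MT2A, the most widely expressed metallothionein (chromosome 16, 56608584 to 56609497, plus strand, GRCh38.p14), had 162, 134 and 161 reads in control 1 to 3 and 153, 94 and 131 reads in MTR4 KD 1 to 3. This corresponds to 2.63, 1.85 and 2.67 CPM in control and 2.49, 1.41 and 2.14 CPM in MTR4 KD. The groups overlapped, with control 1 and control 3 highest and MTR4 KD 2 lowest. The means were 2.38 ± 0.461 CPM in control and 2.01 ± 0.554 CPM in MTR4 KD (SD, n = 3 each), and the log2 fold change was -0.12 ± 0.216 (SE; 95% interval -0.59 to 0.35; adjusted p = 0.752). The interval leaves room for a fall to about 0.59 log2 units below control and for a rise of 0.35. Among libraries with more non-unique reads the difference in log2 CPM was -0.31, among those with fewer it was 0.02, and the change did not differ detectably between the classes (difference -0.38, adjusted p = 0.809). With condition only, the log2 fold change was -0.24 (adjusted p = 0.661). Counting error was part of this spread but did not cover all of it: the exact Poisson 95% intervals were 130 to 179 reads for MTR4 KD 1 and 76 to 115 for MTR4 KD 2, 2 libraries of the same group and class. Such intervals cover counting error only. The sign of the MT2A difference turned to 0.01 without MTR4 KD 2, to 0.08 without MTR4 KD 3 and to 0.03 when scaled by ACTB, and the adjusted p ran from 0.244 to 0.984 over the alternatives.

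MTF1, the zinc-sensing activator of these genes (chromosome 1, 37809574 to 37859592, minus strand), was well above the metallothioneins in reads. It had 1288, 1727 and 1261 reads in control 1 to 3 and 1431, 1476 and 1073 reads in MTR4 KD 1 to 3, or 20.9, 23.9 and 20.9 CPM and 23.3, 22.1 and 17.5 CPM. Across all libraries the groups overlapped, while within each library class every MTR4 KD library was below every control library. Each class holds few libraries, and the share of all genes ordered this way was not computed. The means were 21.9 ± 1.71 CPM in control and 21.0 ± 3.07 CPM in MTR4 KD (SD, n = 3 each). The log2 fold change was -0.16 ± 0.0654 (SE; 95% interval -0.30 to -0.02), which missed the threshold after adjustment (adjusted p = 0.106). With condition only it was -0.06 (adjusted p = 0.837), and when scaled by ACTB it was -0.01. It was -0.26 within the libraries with more non-unique reads and -0.07 within those with fewer, without a detectable difference between them (-0.18, adjusted p = 0.641). Over the alternatives its adjusted p ran from 0.0555 to 0.964. MTF1 was lower in the libraries with more non-unique reads (log2 difference between classes -0.28 ± 0.0655, adjusted p = 0.00521). For MT2A the class difference was 0.33 ± 0.216 (adjusted p = 0.285).

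**Figure D2:**
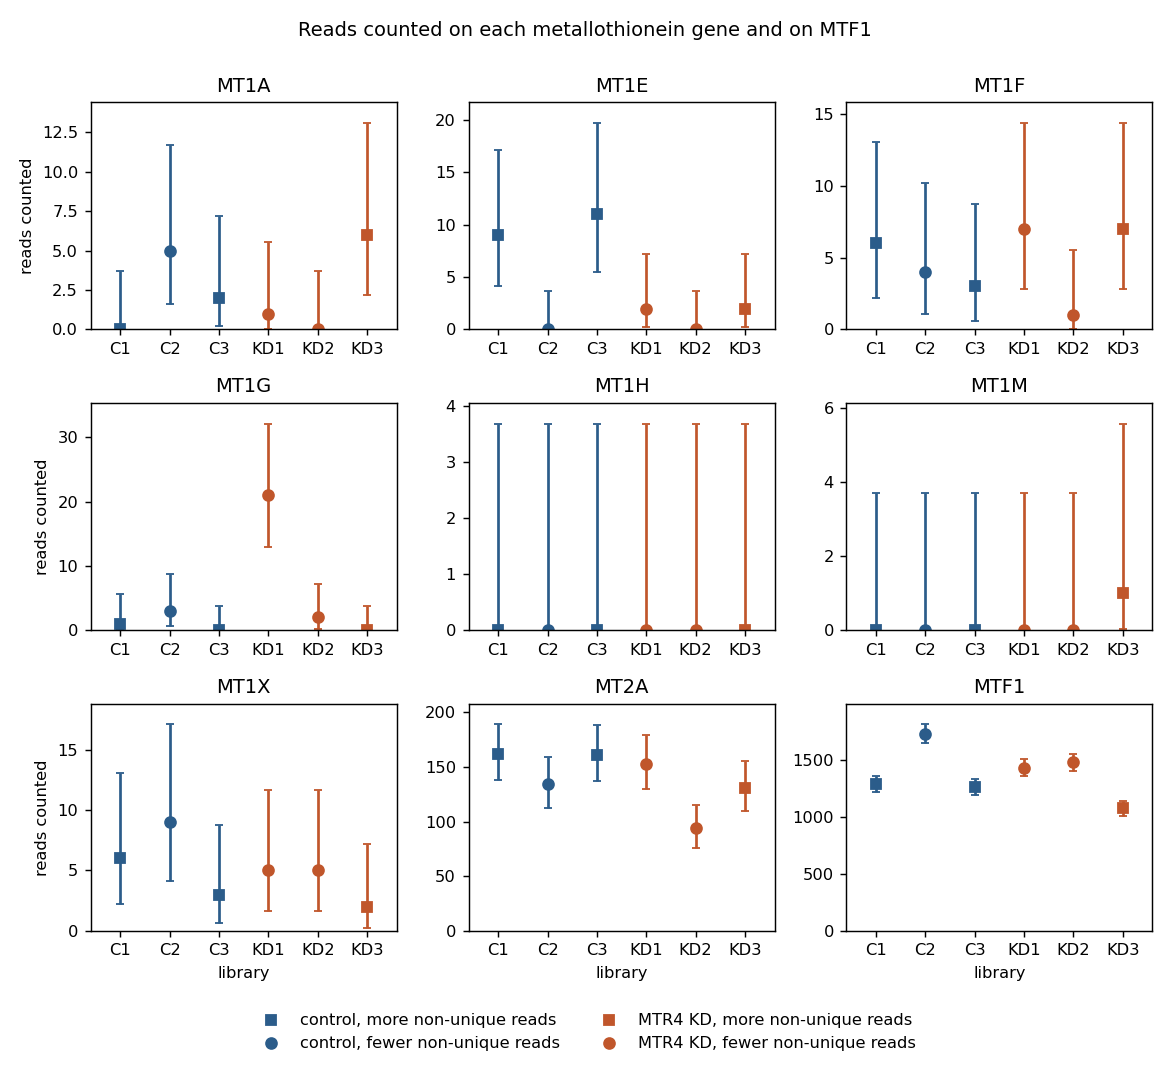
Reads counted (y axis) on each of the 9 members in control 1 to 3 (C1 to C3) and MTR4 KD 1 to 3 (KD1 to KD3), with exact Poisson 95% intervals as bars and the library class as the marker. The y axis differs between panels: MT2A runs from 94 to 162 reads and MTF1 from 1073 to 1727, while no MT1 gene passes 21 reads in a library.

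The MT1 genes were at or near the floor of detection. A floor of 3 reads equals 0.0414 to 0.0497 CPM in these libraries, and the exact two-sided Poisson interval of a count of 0 reaches 3.69 reads (0.051 to 0.0612 CPM). MT1X (56682470 to 56684196) and MT1F (56657959 to 56659303) were the only MT1 genes with reads in every library. MT1X had 6, 9 and 3 reads in control and 5, 5 and 2 in MTR4 KD. MT1F had 6, 4 and 3 reads in control and 7, 1 and 7 in MTR4 KD. The groups overlapped for both genes, and the summed counts lay within each other's exact Poisson intervals (MT1X 18 reads, 10.7 to 28.4, against 12 reads, 6.20 to 21.0; MT1F 13 reads, 6.92 to 22.2, against 15 reads, 8.40 to 24.7).

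MT1E (56625781 to 56627112) had 9, 0 and 11 reads in control and 2, 0 and 2 in MTR4 KD. Its reads were in control 1 and control 3, both libraries with more non-unique reads, where MTR4 KD 3 of the same class had 2; the control and knockdown libraries with none were both of the other class. The sums were 20 reads (12.2 to 30.9) in control and 4 (1.09 to 10.2) in MTR4 KD. When genes with low counts were kept in the fit, MT1E was not called (log2 fold change -0.91, adjusted p = 0.844).

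MT1G (56666730 to 56668065, the only minus-strand metallothionein here) had 1, 3 and 0 reads in control and 21, 2 and 0 in MTR4 KD. The sums were 4 reads (1.09 to 10.2) in control and 23 (14.6 to 34.5) in MTR4 KD. The excess was 1 library: MTR4 KD 1 held 21 of the 27 reads, with an interval of 13 to 32.1, and the other MTR4 KD libraries were in the range of control. Kept in the fit without a filter, MT1G was not called either (log2 fold change 1.33, adjusted p = 0.792). MT1A (56638666 to 56640087) had 0, 5 and 2 reads in control and 1, 0 and 6 in MTR4 KD, 7 reads in each group. MT1M (56632659 to 56633981) had 1 read, in MTR4 KD 3, and MT1H (56669814 to 56671129) had none in any library. MT1H is thus the member with the most element cores among the promoters printed above and the one without a read.

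Summing the 8 metallothionein genes does not restore reads left out of the counts as not unique or ambiguous. Over these genes the libraries had 184, 155 and 180 reads in control and 189, 102 and 149 in MTR4 KD. These are 2.98, 2.14 and 2.98 CPM and 3.08, 1.53 and 2.43 CPM, so the highest and the lowest library were both MTR4 KD. The means were 2.70 ± 0.487 and 2.35 ± 0.780 CPM (SD, n = 3 each), and the log2 of their ratio was -0.20. Within a class the difference of mean log2 CPM was taken instead: -0.30 with more non-unique reads and 0.02 with fewer. The 7 MT1 genes alone had 22, 21 and 19 reads in control and 36, 8 and 18 in MTR4 KD, with means of 0.321 ± 0.0337 and 0.333 ± 0.236 CPM. The log2 ratio of these MT1 means was 0.06 over all libraries. The differences of mean log2 CPM were -0.19 within the libraries with more non-unique reads and -0.13 within those with fewer. The measures are unlike, so the change of sign between them is not a result about the classes. In bulk RNA, fewer cells expressing a gene and less RNA per cell cannot be told apart.

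Other metallothionein loci were as low. The 13 further genes and pseudogenes of the family had 58 reads in all, and 9 of them had none, MT1B, MT1L and MT4 included. MT3, the metallothionein of brain, had 3 reads in control 2 and 5 in MTR4 KD 1. The pseudogene MT1XP1 had 1, 8 and 0 reads in control and 13, 0 and 0 in MTR4 KD. MTR4 KD 1, the library with most MT1G reads, thus also had the most on MT3, MT1XP1 and, with 8 reads, MT1P1; these genes were chosen after their values were seen.

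Per length of exon, the order of levels was MTF1 with 2.68 ± 0.285 reads per kilobase of exon scaled as CPM (RPKM; SD over 6 libraries), MT2A with 2.40 ± 0.546, MT1G with 0.0954 ± 0.178, MT1A with 0.0911 ± 0.1, MT1E with 0.0624 ± 0.0747, MT1X with 0.0444 ± 0.0190, MT1F with 0.0401 ± 0.0219, MT1M with 0.00532 ± 0.0130 and MT1H at 0. On these lengths MTF1 and MT2A did not differ beyond their spread, nor did neighbours in the order from MT1G to MT1F. The MT2A range of 1.54 to 2.92 RPKM lay above every MT1 value. The order depends on the length used. The union of exons has 914 bases for MT2A, 1727 for MT1X and 396 for MT1A. The transcripts cut into windows above have 401, 404 and 396, and levels on those lengths were not computed. MT2A was above 55.0% and MTF1 above 56.5% of the 19542 protein-coding genes, of which 1924 had no read and the median was 1.5 RPKM. MT1G, the highest MT1 gene by mean, was above 33.5%.

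The genes around the cluster, which spans 75.6 kb, were at mixed levels. Of the 12 protein-coding neighbours within 500 kb, 10 were tested, and the median level of the 12 was 3.76 RPKM. Of the 10 tested, 2 were called higher and 2 lower in MTR4 KD, against 9.43% and 10.8% of all tested genes. HERPUD1, a stress-induced protein of the endoplasmic reticulum, stood at 18.3 RPKM and NUDT21, a subunit of the cleavage factor for mRNA 3′ ends, at 14.3 RPKM, while GNAO1 (0.00866 RPKM) and CETP (0.00945 RPKM) were below most MT1 genes, NLRC5 was at 0.0621 RPKM within the MT1 range and SLC12A3 at 0.327 RPKM. HERPUD1 (log2 fold change 0.19, adjusted p = 0.00673) and NLRC5, a regulator of MHC class I genes (0.90, adjusted p = 0.0469), rose, and NUP93, a nuclear pore protein (-0.19, adjusted p = 0.0231), and CPNE2 (-0.23, adjusted p = 0.0173) fell. None of these 4 was called with condition only (adjusted p = 0.568, 0.21, 0.315 and 0.134), and each lost its call without MTR4 KD 3 (0.053, 0.429, 0.234 and 0.125). Leaving out control 1, control 3 or MTR4 KD 1 also ended the call of NLRC5, as did control 3 or MTR4 KD 2 for NUP93 and control 2 or MTR4 KD 1 for CPNE2 (adjusted p from 0.0609 to 0.134). Scaled by ACTB, NUP93 stood at -0.04 and CPNE2 at -0.08, uncalled (adjusted p = 0.712 and 0.502).

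**Figure D3:**
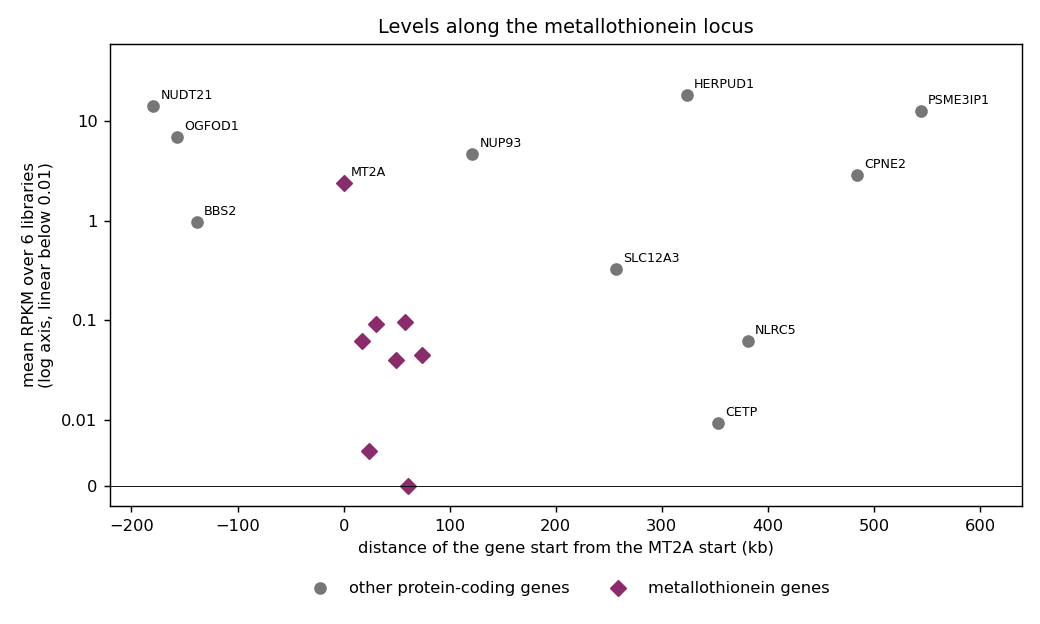
Mean level over 6 libraries (y axis, RPKM, logarithmic above 0.01 and linear below) of the metallothionein genes (diamonds) and other protein-coding genes of the stretch from 200 kb before to 550 kb after (grey circles) against the distance of the gene start from that of MT2A (x axis, kb). MT2A lies at 2.40 RPKM among the neighbours and the 7 MT1 genes lie at 0.0954 RPKM or less.

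Most genes that move zinc were expressed, and some changed. SLC30A2, SLC39A2 and SLC39A12 were as low as the MT1 genes, with 11, 5 and 3 reads over the 6 libraries, and were not tested (named after their values were seen). Among the SLC30 exporters, which carry zinc out of the cytosol, 3 of 9 tested rose and none fell, with a median log2 fold change of 0.08 against 0.01 over all tested genes. For this and each later list, the shares of all tested genes to set beside these counts are 9.43% higher and 10.8% lower. SLC30A1, the plasma membrane exporter and the best known MTF1 target outside the metallothioneins, had 49.2, 51.4 and 44.8 CPM in control and 61.0, 54.7 and 54.5 CPM in MTR4 KD. All MTR4 KD libraries were above all control libraries (log2 fold change 0.19, adjusted p = 0.0313), although the call was lost with condition only (adjusted p = 0.176). SLC30A10, an exporter of manganese, had 9.75, 10.1 and 10.2 CPM in control and 17.6, 17.4 and 15.9 CPM in MTR4 KD. It rose by 0.73 on the log2 scale (adjusted p = 1.08e-05, and 0.00361 with condition only). SLC30A4 rose by 0.25 (adjusted p = 0.0436), a call lost with condition only (adjusted p = 0.226). Leaving out MTR4 KD 1 or 3 or control 2 or 3 ended the call of SLC30A1 (adjusted p = 0.122, 0.14, 0.0749 and 0.0815), and leaving out MTR4 KD 1 or 2 or control 1 or 2 ended that of SLC30A4 (0.136, 0.0532, 0.107 and 0.412).

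Among the SLC39 importers, 2 of 12 tested rose and 2 fell (median -0.02). SLC39A5, an importer of the basolateral membrane, had 15.8, 13.3 and 15.7 CPM in control and 22.6, 22.2 and 26.8 CPM in MTR4 KD, without overlap, and rose by 0.76 (adjusted p = 1.91e-06, and 0.0205 with condition only). SLC39A14, the importer of liver for zinc, iron and manganese, was the most abundant of those named at 532 to 597 CPM in control and 658 to 725 CPM in MTR4 KD (log2 fold change 0.25, adjusted p = 0.00217). SLC39A10 (-0.30, adjusted p = 0.00032) and SLC39A6 (-0.13, adjusted p = 0.0358) fell, but when scaled by ACTB they stood at -0.14 (adjusted p = 0.0725) and 0.02 (0.806), uncalled. The calls of SLC39A14, SLC39A10 and SLC39A6 were lost with condition only (adjusted p = 0.0824, 0.149 and 0.267). That of SLC39A6 held in 1 of the 6 fits with 1 library left out, the one without control 3, and the adjusted p reached 0.179 without control 2.

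Of 12 genes listed for copper handling, a list that also held MTF2, which is not a copper gene, 3 rose and 3 fell (median -0.04). CP, ceruloplasmin, the copper-carrying ferroxidase that hepatocytes secrete, fell from 304, 331 and 304 CPM to 106, 104 and 102 CPM (log2 fold change -1.62, adjusted p = 1.69e-10, and 0.000365 with condition only). The copper chaperones CCS (0.30) and ATOX1 (0.21) and the copper pump ATP7B (0.24) rose, and the pump ATP7A (-0.28) and the MTF1 namesake MTF2, a polycomb protein (-0.15), fell. Of these, CP alone was called with condition only, and when scaled by ACTB, MTF2 stood at 0.00 and ATP7A at -0.12 (adjusted p = 0.23), uncalled. The call of ATOX1 ended without MTR4 KD 3 (adjusted p = 0.24) or control 3 (0.0529), and that of MTF2 without any 1 of the MTR4 KD libraries or control 2 (0.0535 to 0.131).

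**Figure D4:**
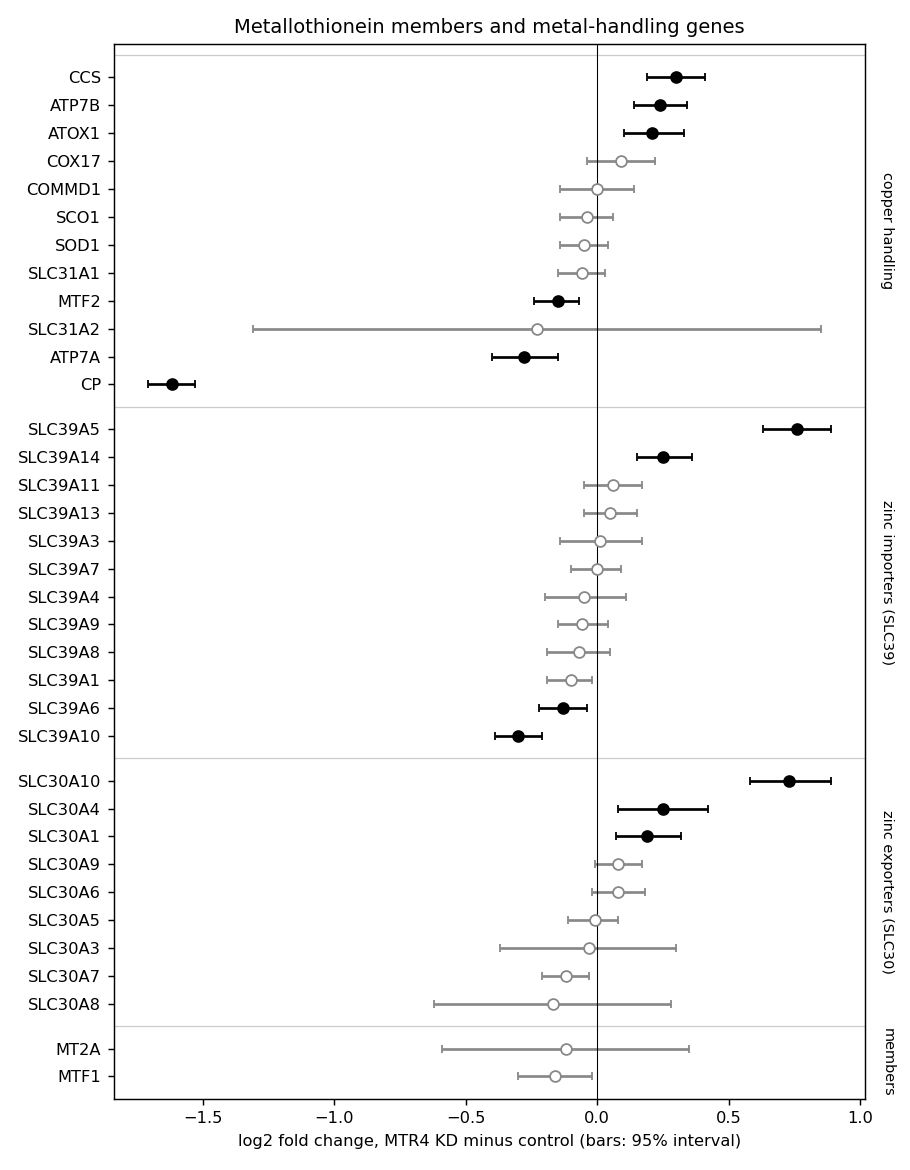
Log2 fold change, MTR4 KD minus control (x axis), with 95% intervals, of MT2A, MTF1 and the tested genes of the zinc and copper lists (y axis, grouped by list). Filled points were called at an adjusted p under 0.05 and open points were not. MT2A and MTF1 are open, and CP at -1.62 and SLC39A5 at 0.76 are the outermost filled points.

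Regulators and other targets of the signals that act on metallothioneins moved in both directions. Of 14 metal and oxidant response factors, MTF1 included, 3 rose and 3 fell (median 0.00), and none was called with condition only. CEBPA (0.65), a hepatocyte transcription factor, KEAP1 (0.27), the sensor that restrains NRF2, and NR3C1 (0.18), the glucocorticoid receptor, rose, while STAT3 (-0.28), CEBPB (-0.29) and HIF1A (-0.13) fell. CEBPA had 26.8, 7.49 and 28.6 CPM in control and 11.9, 13.6 and 41.1 CPM in MTR4 KD, which overlapped widely across classes, and its log2 fold change was 0.08 with condition only. When scaled by ACTB, HIF1A stood at 0.03, STAT3 at -0.12 (adjusted p = 0.114) and CEBPB at -0.14 (0.121), all uncalled. Of 11 glucocorticoid receptor targets, SGK1 (0.39) and ERRFI1 (0.12) rose and FKBP5 (-0.23) fell (median -0.01), and SGK1 alone was called with condition only (adjusted p = 0.0480). FKBP5 stood at -0.07 when scaled by ACTB (adjusted p = 0.41). HIF1A and ERRFI1 were not called with any 1 of the 6 libraries left out (adjusted p from 0.0908 to 0.359 and from 0.0921 to 0.198). KEAP1 was not called without control 2 (0.22), nor NR3C1 without control 2 (0.0882) or MTR4 KD 1 (0.0534).

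Of 17 genes listed as acute phase, 13 were tested, 3 rose and 3 fell (median -0.01). The list also held IL6R, IL6ST and SOCS3, which are cytokine signalling genes and not acute phase proteins. HPX, the heme carrier hemopexin, rose by 1.17 (35.1, 34.6 and 35.0 CPM to 73.5, 76.9 and 81.2 CPM), with FGB (0.25) and IL6ST (0.27), and LBP fell by 1.42 on the log2 scale, with IL6R (-0.31) and SOCS3 (-0.68). HPX and LBP were called with condition only (adjusted p = 0.000505 and 0.0157) and the others were not, and SOCS3 was not called without MTR4 KD 3 (adjusted p = 0.156). IL6R stood at -0.15 when scaled by ACTB (adjusted p = 0.0693). Of 11 genes outside the family that metals induce, 5 rose and 1 fell (median 0.13). HMOX1, heme oxygenase 1, had 119, 86.8 and 103 CPM in control and 133, 133 and 145 CPM in MTR4 KD (log2 fold change 0.50, adjusted p = 9.78e-05, and 0.116 with condition only). The heat shock genes HSPA1B (0.23) and HSPA1A (0.17) rose, with SLC30A1 above and SRXN1 (0.45), which was named after its values were seen because the naming rule stops at 4 genes. With 1 library left out SRXN1 was called only without MTR4 KD 3 (adjusted p up to 0.317, without control 2), and with condition only it was not called (0.114). HSPA1B and HSPA1A were not called with condition only (adjusted p = 0.0791 and 0.413), nor was HSPA1A without MTR4 KD 1, MTR4 KD 3 or control 1 (adjusted p = 0.0661, 0.0744 and 0.0516). LCN2, lipocalin 2, was low and fell from 2.50, 2.22 and 2.77 CPM to 0.473, 0.389 and 0.555 CPM (log2 fold change -2.31, adjusted p = 6.8e-06, and 0.00183 with condition only). Over these 7 lists, which were chosen with earlier results known, 33 of 81 tested genes were called, 20 higher and 13 lower, against a background of 20.2%. That background takes in all tested genes, those with few reads included, and was not matched for level. With condition only, 7 were called (4 higher and 3 lower), against 3.6% of all tested genes. Scaled by ACTB, 42 were called (38 higher and 4 lower), where 6192 of all 18075 genes were called (5414 higher and 778 lower).

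The expression pattern of MT2A over the 6 libraries was close to that of SIMC1 (Pearson r = 0.977), SLC25A40 (0.965), YEATS4 (0.962) and GID4 (0.941), 4 of the 5 highest r values out of 9723 genes of at least 10 CPM. None of these 4 was called, and all were lowest in MTR4 KD 2, as MT2A was. Both traits follow largely from choosing the genes by their r with MT2A. With 6 libraries that differ in class and depth, r values of this size are a description of the libraries. MTF1 and MT2A had r = -0.186 over the same 6 libraries.

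**Figure D5:**
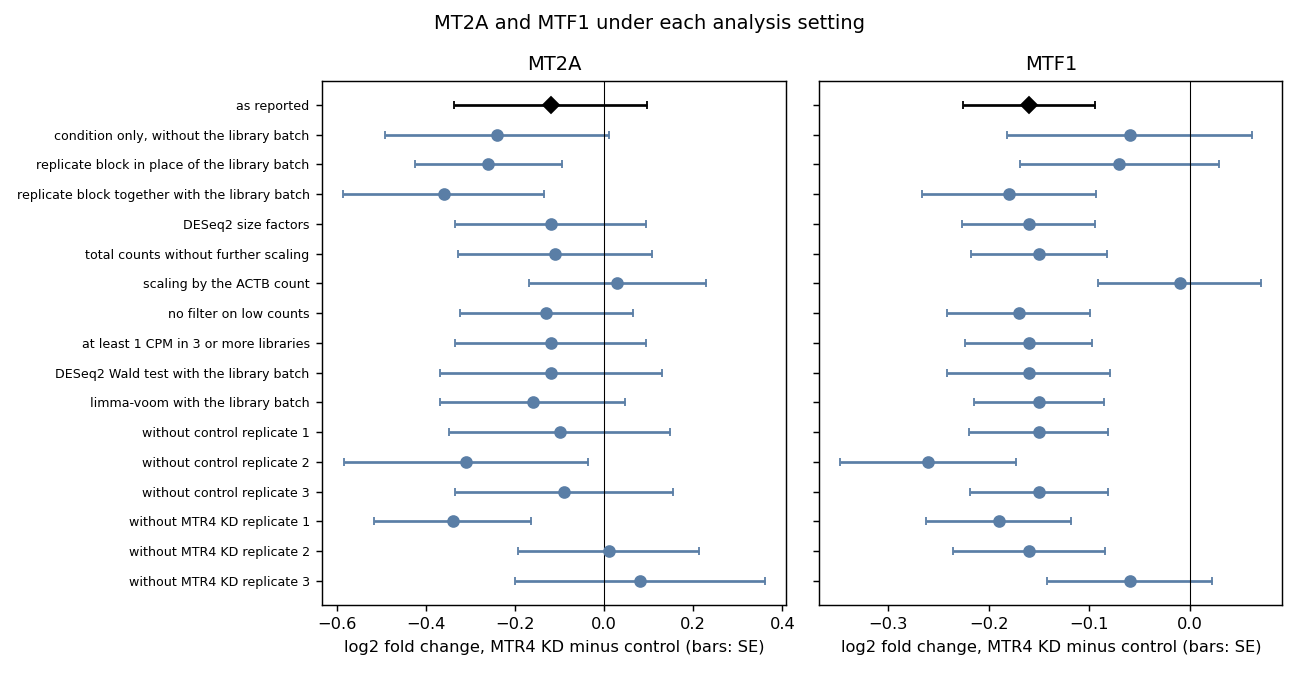
Log2 fold change, MTR4 KD minus control (x axis, bars are SE), of MT2A (left) and MTF1 (right) as reported (diamond) and under each of 16 other analysis settings (circles, y axis). MT2A ran from -0.36 to 0.08 and MTF1 from -0.26 to -0.01, and no setting called either gene.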

How the data were processed

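RNA-seq of 3 control and 3 MTR4 KD libraries of PLC/PRF/5 cells was used. The authors deposited raw read counts per Ensembl gene and the HTSeq classes of unassigned reads. The submitters' processing notes name HISAT2 2.1.0, HTSeq and DESeq2, with GRCh38. The strand setting was not given in the sources used here. Reads not unique or ambiguous are not in the gene counts, which lowers near-identical genes.

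Genes were kept by filterByExpr (minimum count 10). Counts were scaled by TMM and tested with edgeR 4.0.16 (R 4.3.3, limma 3.58.1, quasi-likelihood, Benjamini-Hochberg over 18075 genes) with library class (over 30% non-unique entries or not) and condition as terms, which leaves 3 residual degrees of freedom. DESeq2 1.42.0 served for alternatives. Within-class differences have no test. Library class was read from the files and not from the labels. Figures were drawn with matplotlib. The procedure was tested on simulated data.

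Symbols came from the names table (56959 of 60675 identifiers matched), as did 131 of 133 listed symbols (not PECAM1 and SCO2). Positions and promoters came from RefSeq on GRCh38.p14, and exon lengths and transcript sequences from a GENCODE annotation lifted to GRCh37, whose coordinates were not used. RPKM used the union of exons.

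The members and lists were chosen with earlier results of these data known. Named were the 9 members, MTREX, ACTB, SLC30A1, at most 4 called genes per list and direction by adjusted p, the 5 genes most like MT2A in pattern (at least 10 CPM) and called neighbours within 500 kb. Some genes that these rules or ranges cover are not reported here. The paper's RIP-seq, tumors and splicing were not analysed here.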

Additional observations from a re-analysis of the deposited data

How the results depend on the processing

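Neither tested member was called under any of the 16 alternatives. The MT2A log2 fold change reversed from -0.12 to 0.03 when scaled by ACTB, which moved the median of all genes from 0.01 to 0.16, and to 0.01 and 0.08 without MTR4 KD 2 and 3. The range with 1 library left out was -0.34 to 0.08 for MT2A and -0.26 to -0.06 for MTF1. The 3649 called genes became 650 with condition only, 6192 when scaled by ACTB (5414 higher and 778 lower, against 1705 and 1944), 347 with a fold change over 2 as well, and 2409 to 2947 with 1 library left out (2409 without MTR4 KD 1). The cause was not tested. The 33 called genes of the pathway lists became 7 with condition only and 24 to 28 with 1 library left out. ACTB itself was lower in MTR4 KD (log2 fold change -0.16, adjusted p = 0.0288, and 0.192 with condition only).

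With the replicate number as a block in place of library class, 857 genes and 10 list genes were called, and with both terms 2128 genes; MT2A stood at -0.26 and -0.36 and MTF1 at -0.07 and -0.18, uncalled in all. Whether the numbers pair the libraries could not be told, since class was not removed before the check. Deviations of same-numbered libraries correlated at -0.24 for number 1, whose libraries differ in class. For numbers 2 and 3, whose libraries share a class, the correlations were 0.325 and 0.352. Across groups only libraries sharing a class correlated above 0.

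Of 42 list genes and neighbours named as called, 11 were also called with condition only, and 3 reversed when scaled by ACTB (HIF1A 0.03, SLC39A6 0.02 and MTF2 0.00). The summed metallothionein difference of -0.20 ran from -0.45 to 0.03, and levels per longest transcript kept their order apart from MT1F and MT1X, which changed places. At these depths the MT1 genes could be described only by counts.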
